A study of Mus musculus with 12 samples.

Results

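Naive and recirculating T cells carry a shared set of transcripts, and 9 of them are described here: Ccr7, S1pr1, Il7r, Klf2, Lef1, Tcf7, Satb1, Bach2 and Dapl1. They were taken by name from the deposited table of 23937 genes, all 9 were found in it, and all 9 passed the filter on low values (a CPM, or count per-million reads, of at least 1 in at least 3 libraries). They were followed over CD8 T cells, the cytotoxic T cell lineage, obtained by fluorescence-activated sorting from mouse brain and blood. The 4 groups were naive mouse brain, brain 3 days after stroke, brain 30 days after stroke and naive mouse blood, with 3 libraries in each. The labels give no strain, age, sex or stroke model, and their treatment text speaks of spleens where tissue and title say brain or blood; the groups follow tissue and title. Whether the libraries of a group come from different mice is not stated. The p-values therefore measure at most the spread between these libraries, which may be technical.

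A naive CD8 T cell circulates between blood and lymph nodes. CCR7 takes it into the node along the chemokines CCL19 and CCL21, S1PR1 takes it out again along the sphingosine 1-phosphate gradient, and interleukin 7 acting on the receptor chain IL7R keeps it alive. KLF2 drives transcription of S1pr1, TCF1 (the product of Tcf7) and LEF1 hold the naive and memory programme, and cells that settle in a tissue such as brain are known to lose much of this set.

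Summed over the 9 genes, reads were fewest after stroke and most in blood. They made up 0.204%, 0.241% and 0.273% of all reads in naive brain and 0.193%, 0.0974% and 0.118% of them 3 days after stroke. The shares were 0.179%, 0.187% and 0.145% 30 days after stroke, against 0.574%, 0.418% and 0.476% in naive blood. All 9 brain libraries lay below all 3 blood libraries, and all 6 post-stroke libraries lay below all 3 naive brain libraries. The second separation leans on Klf2, which held 1876 of 7079, 13690 of 35866 and 28001 of 57421 of these reads in naive brain. At day 30 Klf2 held 1982 of 12238, 305 of 3224 and 277 of 2829. The sums do not show that the other genes were lower at day 30 than in naive brain. The shares do not depend on the authors' scaling of library size, but they do depend on what else was in each library. In bulk RNA fewer cells of a type and less RNA per cell cannot be told apart. Depth ran from 1104490 to 21014171 reads. Without molecular identifiers, PCR copies are counted as reads, so read counts are not counts of molecules. By counting error alone, the exact 95% binomial interval (Clopper-Pearson) of day 3 replicate 1 was 0.189% to 0.197%, against 0.199% to 0.209% for naive brain replicate 1. The fewest reads on the 9 genes were 1128 in day 3 replicate 2, with an interval of 0.0918% to 0.103%, and 1491 in day 3 replicate 3, against 2829 to 57421 in the other 10 libraries.

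The libraries differed in ways that touch every result below. The mean log2 level of 15 T cell identity genes (CD3, CD8 and signalling genes such as Lck and Zap70) was 8.90, 9.55 and 9.67 in naive brain. It was 7.85, 4.78 and 5.69 in the day 3 libraries, 9.87, 8.30 and 7.997 in those of day 30 and 7.56, 7.09 and 7.71 in those of blood, so the genes that define the labelled cell type were lowest in day 3 replicates 2 and 3. Cd8a itself was detected in every library, at 52.8 CPM or more. Reads on 1499 olfactory, vomeronasal, taste and trace amine receptor genes, sensory receptors with no known use in T cells, split the libraries into 5 of low background (all naive brain libraries and replicate 1 of day 3 and of day 30) and 7 of high background (all blood libraries and the others); naive brain and naive blood therefore cannot be told apart from low and high background. The 16 microglia genes, which all had reads in every group, took 1.24% to 2.502% of reads in naive brain. They took 0.448% to 1.72% in day 3 libraries, 0.229% to 0.674% in day 30 libraries and 0.0230% to 0.0686% in blood libraries. The 8 dendritic cell genes took 0.0607% to 0.0783% at day 3, against 0.00679% to 0.0312% in the other 9 libraries. The share of 11 monocyte and macrophage genes ran from 0.437% to 1.02% in day 3 libraries and from 0.285% to 0.483% in the 6 libraries of naive brain and day 30, against 0.0567% to 0.196% in those of blood. Of these 11 genes, 6 rose at day 3 relative to blood. The 6 erythroid genes took 0.0127% to 0.237% at day 3 and 0.0239% to 0.734% in blood, against at most 0.00568% in naive brain and at day 30, and 4 of the 6 rose at day 3 relative to naive brain. The B cell gene Cd79a and the endothelial gene Cldn5 were at most 11.6 and 6.03 CPM in any library. Other genes of those lists were higher: endothelial Cdh5 ran from 24.1 to 86.2 CPM at day 3, and the B cell list gene Blnk, also used by myeloid cells, averaged 148 CPM in naive brain and 79.5 CPM at day 3, against 6.44 CPM in blood. The part of these other cells in the results below was not tested.

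**Figure D1:**
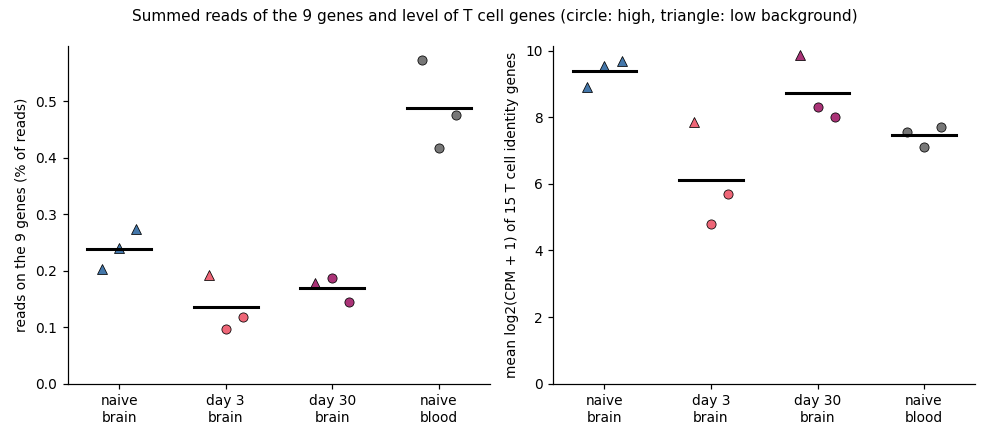
Left, reads on the 9 genes as a percent of all reads in each of 12 libraries; right, the mean log2(CPM + 1) of 15 T cell identity genes in the same libraries. Lines are group means, triangles are libraries of low and circles of high receptor background. The 3 blood libraries, at 0.418% to 0.574%, lie above the 9 brain libraries on the left, and day 3 replicates 2 and 3 are lowest on both sides.

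Levels are given as CPM of a scaled library size, as deposited, and a difference is the mean log2(CPM + 1) of the group named first less that of the other, with its standard error (SE). Tests are limma's moderated test over 22352 genes, with p-values adjusted by Benjamini and Hochberg over all of them within each of 6 comparisons and a threshold of 0.05. Because the T cell level differed so much between libraries, each comparison is also given on a second scale. There the mean log2 level of the 15 T cell identity genes is set equal in all libraries. This asks whether a gene moved more or less than the T cell genes did, and the scaling of library size cancels except through the added 1. On the second scale limma took the spread wholly from the trend over all genes. A gene's own spread between libraries does not enter its SE or p-value there. For Ccr7 on that scale the SD was 1.80 at day 30, 0.52 at day 3, 0.77 in naive brain and 0.29 in blood.

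On the deposited scale 4 of the 9 genes passed the threshold in any comparison. Klf2 was higher in naive brain than in blood, where 7.59% of all genes passed, and Dapl1, Lef1 and Satb1 were lower at day 3 than in blood, where 1.18% did. Their upstream sequences are shown because the data turn on these 4. RefSeq promoter windows (GRCm38.p6, 250 bases before to 50 after a start) were held for 7 of the 9 genes: Klf2, Lef1, Tcf7, Il7r, Dapl1, Satb1 and Bach2. Both strands of each window were searched for GTAAACA, the core bound by FOXO factors, which maintain Il7r and Klf2 in naive T cells, for CACCC, the core bound by KLF factors, and for the GC box GGGCGG. The 3 motifs occur in 3.65%, 57.5% and 35.7% of all 32851 windows. The stretch before the most upstream start of each gene follows, 5′ to 3′ on the gene's strand, with those motifs on either strand in capitals; 200 bases are shown, and 171 for Klf2, whose stretch ends where the annotated gene begins.
Klf2 (chr8:72318862-72319032, plus strand): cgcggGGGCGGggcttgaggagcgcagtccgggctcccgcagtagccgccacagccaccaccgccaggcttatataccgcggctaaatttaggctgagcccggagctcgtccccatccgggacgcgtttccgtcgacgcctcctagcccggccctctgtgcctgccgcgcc
Lef1 (chr3:131110097-131110296, plus strand): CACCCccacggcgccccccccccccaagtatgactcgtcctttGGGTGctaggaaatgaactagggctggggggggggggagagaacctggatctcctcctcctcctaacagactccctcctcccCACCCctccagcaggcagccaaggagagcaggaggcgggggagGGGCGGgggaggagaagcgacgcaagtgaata
Satb1 (chr17:51833291-51833490, minus strand): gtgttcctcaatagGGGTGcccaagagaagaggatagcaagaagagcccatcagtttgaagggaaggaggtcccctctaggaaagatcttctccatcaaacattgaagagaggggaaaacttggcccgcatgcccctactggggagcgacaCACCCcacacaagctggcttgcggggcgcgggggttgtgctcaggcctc
Dapl1 (chr2:59484453-59484652, plus strand): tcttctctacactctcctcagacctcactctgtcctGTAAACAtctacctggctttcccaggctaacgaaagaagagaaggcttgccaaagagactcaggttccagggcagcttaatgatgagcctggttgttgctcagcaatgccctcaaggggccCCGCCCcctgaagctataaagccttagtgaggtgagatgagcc
GTAAACA was found in the windows of Dapl1, 164 to 158 bases before its start, and of Tcf7, at the other of its 2 starts, and in no other window of these 7 genes. CACCC was found in windows of Klf2, Lef1, Tcf7 and Satb1, and GGGCGG in windows of Dapl1, Klf2, Lef1, Tcf7 and Satb1. These are letter matches and no evidence of binding.

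Ccr7, the lymph node homing receptor, lies on chromosome 11 (99144196 to 99155077, minus strand, GENCODE vM21, mm10). It had 251, 635 and 1236 CPM in naive brain, 1032, 70.5 and 116 CPM at day 3, 570, 15.6 and 28.0 CPM at day 30, and 353, 179 and 277 CPM in blood. Replicates 2 and 3 of both post-stroke groups were below all naive brain and blood libraries, and replicate 1, of low background, was within the range of naive brain and above that of blood, so the groups overlapped and no comparison passed on the deposited scale. The values of 15.6 and 28.0 CPM rest on 34 and 62 reads. Relative to the T cell identity genes, the day 30 libraries of Ccr7 stood at -0.72, -4.24 and -3.14, against 2.16, 1.38 and 1.18 at day 3, -0.93, -0.24 and 0.60 in naive brain and 0.91, 0.40 and 0.41 in blood. All day 30 libraries were below all of day 3 and blood, and replicate 1 overlapped with naive brain. On that scale the day 30 difference was -4.27 ± 0.59 against day 3 (adjusted p = 2.07e-10), -3.27 ± 0.59 against blood (adjusted p = 3.79e-05) and -2.51 ± 0.59 against naive brain (adjusted p = 0.0156), each past the threshold as lower, where 38.4%, 0.349% and 0.233% of all genes passed. The last of these was lost with library background as a term (-1.23, adjusted p = 0.882). Mature dendritic cells also use Ccr7, and the dendritic cell gene Flt3 had 134 ± 29.9 CPM at day 3, 24.2 ± 16.3 at day 30, 99.5 ± 107 in naive brain and 20.7 ± 19.6 in blood (SD, n = 3 each); its part in the result was not tested.

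S1pr1, the egress receptor, lies on chromosome 3 (115710433 to 115715072, minus strand) and had 163, 314 and 252 CPM in naive brain, 116, 35.0 and 52.5 CPM at day 3, 244, 196 and 27.1 CPM at day 30, and 274, 173 and 206 CPM in blood. All 3 day 3 libraries lay below every naive brain and blood library, and day 30 reached from below all of day 3 up into the range of naive brain and blood. Its differences of -1.95 ± 0.76 against naive brain and -1.82 ± 0.76 against blood at day 3 did not pass (adjusted p = 0.272 and 0.408, limma).

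Il7r, on chromosome 15 (9505788 to 9530176, minus strand), encodes the interleukin 7 receptor chain. It had 429, 390 and 259 CPM in naive brain, 294, 138 and 87.8 CPM at day 3, 356, 287 and 179 CPM at day 30, and 645, 563 and 716 CPM in blood. All 9 brain libraries lay below all 3 blood libraries, with no comparison past the threshold (adjusted p = 0.143 at day 3, 0.519 at day 30 and 0.404 in naive brain, each against blood). With the T cell identity genes set equal, its difference from blood was -2.78 ± 0.54 in naive brain (adjusted p = 7.16e-05) and -2.54 ± 0.54 at day 30 (adjusted p = 0.00219), both past the threshold, while the day 3 value of -0.71 ± 0.54 was not (adjusted p = 0.483). The medians of all genes in these comparisons were -2.29, -1.32 and 1.37.

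Klf2, a zinc finger factor of quiescent T cells that also acts in endothelium, lies on chromosome 8 (72319033 to 72321656, plus strand). It had 727, 1474 and 2781 CPM in naive brain, 1054, 137 and 227 CPM at day 3, 449, 140 and 125 CPM at day 30, and 272, 79.0 and 265 CPM in blood. Every naive brain library was above every blood and every day 30 library, while day 3 overlapped with each other group. Against blood, Klf2 was 3.00 ± 0.72 (SE) higher in naive brain on the log2 scale (adjusted p = 0.0041, limma). That call was lost without naive brain replicate 3 (2.53, adjusted p = 0.0724) and without naive blood replicate 2 (2.42, adjusted p = 0.0585). In each post-stroke group the library of low background was the highest, and with library background as a term the difference was 0.84 (adjusted p = 0.9995). The endothelial gene Cdh5 had 4.37 to 25.6 CPM in naive brain and 6.49 to 14.8 CPM in blood. Other genes of that list went both ways in naive brain relative to blood. Ly6c1 rose (means of 107 and 19.4 CPM) and Kdr fell (5.99 and 39.5 CPM), with a list median of -0.81 against -0.37 over all genes. The part of endothelial cells in the result was not tested.

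Set against the T cell identity genes, Klf2 gave the tightest pattern of the 9 after stroke. Its log2 level lay 2.19, 2.33 and 2.14 above their mean in the day 3 libraries and at -1.06, -1.16 and -1.02 relative to it in those of day 30, in low and high background alike. It stood at 0.60, 0.98 and 1.77 in naive brain, and at 0.54, -0.77 and 0.35 in blood. The day 30 value fell by 3.30 ± 0.53 relative to day 3 (adjusted p = 8.3e-08) and by 2.19 ± 0.53 relative to naive brain (adjusted p = 0.0195). The first of these stands among 38.4% of all genes that passed in that comparison, nearly all of them lower at day 30, and the second among 0.233%.

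Lef1 and Tcf7 encode partner factors that bind the same DNA core and act with beta-catenin or Groucho corepressors. Lef1, on chromosome 3 (131110471 to 131224356, plus strand), had 198, 241 and 362 CPM in naive brain, 77.7, 20.9 and 48.2 CPM at day 3, 245, 174 and 201 CPM at day 30, and 885, 358 and 546 CPM in blood. Day 3 was below all other libraries, day 30 was below all blood libraries, and naive brain reached into the range of blood only through its replicate 3. At day 3 Lef1 fell by 3.67 ± 0.70 relative to blood (adjusted p = 0.000514). Its difference of -2.56 ± 0.70 at day 3 against naive brain was not past the threshold, nor was that of 2.22 ± 0.70 at day 30 against day 3 (adjusted p = 0.0629 and 0.267).

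Tcf7, on chromosome 11 (52252371 to 52283014, minus strand), had 410, 508 and 432 CPM in naive brain, 248, 27.7 and 83.0 CPM at day 3, 543, 265 and 185 CPM at day 30, and 459, 277 and 296 CPM in blood. Day 3 lay below naive brain and blood without overlap, and day 30 overlapped with each other group. No difference of Tcf7 passed on either scale. The nearest were -2.41 ± 0.71 between day 3 and naive brain on the deposited scale (adjusted p = 0.0978) and, with T cell identity genes set equal, -1.51 ± 0.57 between naive brain and blood (adjusted p = 0.0562). With the T cell identity genes set equal, the 12 libraries of Tcf7 spread from -0.91 to 1.29, the narrowest range of the 9 genes.

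Satb1, a chromatin organiser of developing and naive T cells, lies on chromosome 17 (51736187 to 51833290, minus strand) and had 235, 137 and 182 CPM in naive brain, 81.1, 54.6 and 106 CPM at day 3, 137, 225 and 341 CPM at day 30, and 629, 484 and 590 CPM in blood. All brain libraries were below all blood libraries, and day 3 was below naive brain and day 30. At day 3 it fell by 2.84 ± 0.69 relative to blood (adjusted p = 0.0135), a call lost without naive blood replicate 1 (adjusted p = 0.0935) or 3 (adjusted p = 0.0764).

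Bach2, a repressor that restrains effector differentiation, lies on chromosome 4 (32238804 to 32586108, plus strand) and was low in every group, with 5.81, 65.9 and 81.4 CPM in naive brain, 132, 22.3 and 51.4 CPM at day 3, 83.8, 38.1 and 61.0 CPM at day 30, and 32.4, 102 and 81.0 CPM in blood. The 4 groups overlapped and no comparison passed on the deposited scale. The value of 5.81 CPM rests on 15 reads. Set against the T cell identity genes, Bach2 stood at -6.14, -3.49 and -3.31 in naive brain, -0.80, -0.24 and 0.02 in day 3 libraries, -3.47, -3.01 and -2.04 in day 30 libraries and -2.49, -0.41 and -1.35 in blood.

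Dapl1, known as a transcript of naive T cells, lies on chromosome 2 (59484653 to 59505020, plus strand) and had 325, 96.9 and 118 CPM in naive brain, 84.6, 7.28 and 26.2 CPM at day 3, 144, 139 and 130 CPM at day 30, and 937, 315 and 606 CPM in blood. Day 3 was below all other libraries, and day 30 was the most even group of any of the 9 genes in spite of the mixed background of its libraries. At day 3 Dapl1 fell by 4.40 ± 0.76 relative to blood (adjusted p = 9.9e-05), the largest difference of the 9 genes in any comparison on this scale. Its difference of -2.54 ± 0.76 at day 3 against naive brain was not past the threshold, nor was that of 2.37 ± 0.76 at day 30 against day 3 (adjusted p = 0.109 and 0.284).

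**Figure D2:**
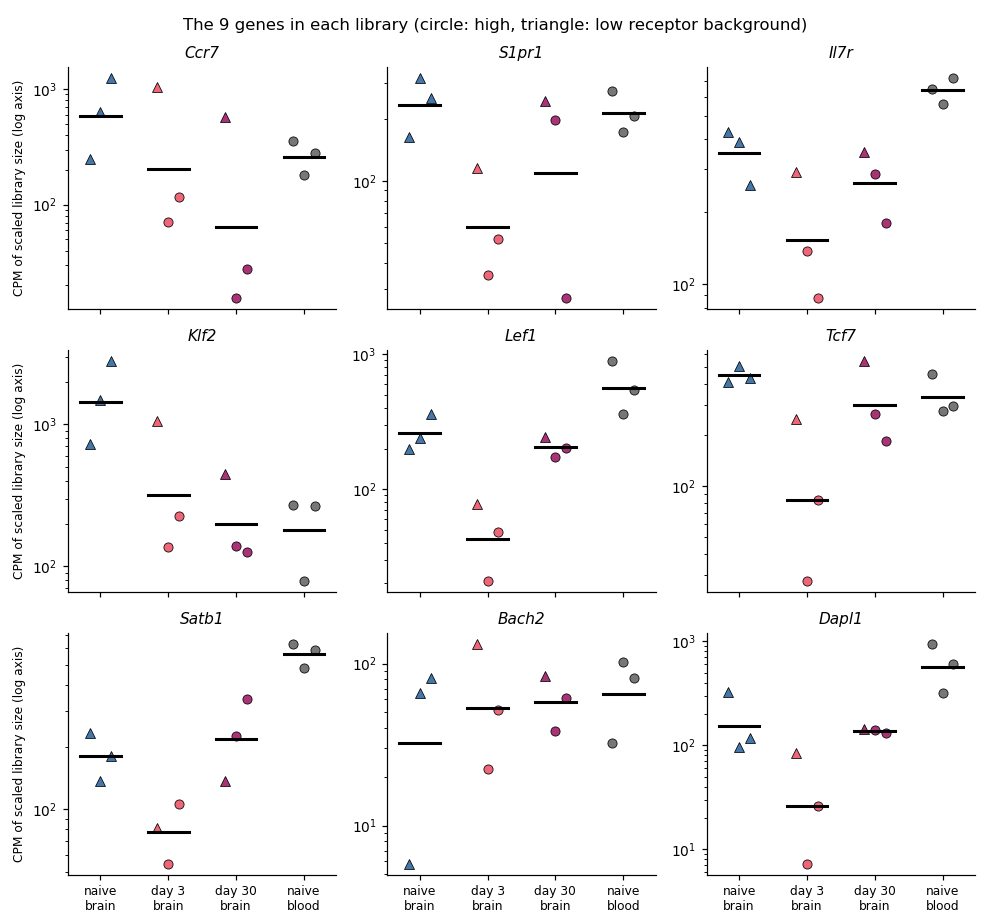
CPM of the 9 genes (log axes, scaled separately) in each library of the 4 groups. Lines are the back-transformed means of log2(CPM + 1), triangles are libraries of low and circles of high receptor background. Dapl1, Lef1 and Satb1 are lowest at day 3 and highest in blood, and Klf2 is highest in naive brain, at 727 to 2781 CPM.

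Per kilobase of exon (GENCODE vM21), the order of the mean levels changed between groups. Klf2 was first in naive brain at a mean of 899 ± 563 CPM per kilobase and at day 3 at 256 ± 274. Dapl1 was first at day 30 at 203 ± 10.5 and in blood at 912 ± 458 (SD, n = 3 each). The second was Ccr7 in naive brain at 358 ± 251 and at day 3 at 205 ± 274, and Klf2 at day 30 at 129 ± 99.0. In these 3 groups the first and second do not differ beyond their spread. In blood the next were Il7r at 138 ± 16.5, Ccr7 at 136 ± 44.2, Tcf7 at 131 ± 38.0 and Klf2 at 111 ± 59.3, which do not differ beyond their spread, then S1pr1 at 71.5 ± 16.9 and Lef1 at 67.8 ± 30.4, and last Satb1 at 29.8 ± 3.95 and Bach2 at 7.22 ± 3.59. Lef1, Tcf7, Satb1 and Bach2 overlap other annotated transcripts in position, and as the strand setting of the counting is not given, reads from those cannot be told apart.

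At day 3, 3 of the 9 genes fell relative to blood and none rose, where 1.18% of all genes passed in either direction and 0.085% as lower. The median difference of the 9 was -1.99, against 0.03 over all genes and -1.46 over the 15 T cell identity genes. Of those 15, 14 were negative and 1 positive, and 0 passed. In 6 of the 9 (Lef1, Tcf7, S1pr1, Il7r, Dapl1 and Satb1) all day 3 libraries were below all blood libraries, as were 4.52% of all genes. Without naive blood replicate 1 or 3 the count of 3 was 2, and without day 3 replicate 1, the day 3 library richest in T cell genes, it was 5. The 2 day 3 libraries that share the high background of blood gave 20.9 and 48.2 CPM for Lef1, 7.28 and 26.2 CPM for Dapl1 and 54.6 and 106 CPM for Satb1, below all 3 blood libraries. With the library size left unscaled, 6 of 9 passed as lower at day 3, and 0 passed with the median of all genes set equal. Of all genes 573 passed unscaled, 135 of them as lower, and 75 passed with the median set equal.

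Against naive brain, none of the 9 passed at day 3 in limma, where 0.716% of all genes did, with 5 of 9 at an unadjusted p under 0.05 against 12.8% of all genes. EdgeR called 0 of the 9, and 17 of all genes. DESeq2 called 1 of the 9, as lower, and 975 of all genes, 175 of them as lower. The median of the 9 was -1.95, against 0.50 over all genes, and 5 of them (Lef1, Tcf7, S1pr1, Dapl1 and Satb1) had all day 3 libraries below all naive brain libraries, as had 8.5% of all genes. Over the same contrast 13 of the 15 T cell identity genes fell, with a median of -2.96. Within low background, the single day 3 library was below all naive brain libraries for Lef1, Tcf7, S1pr1, Satb1 and Dapl1. It was within their range for Klf2, Ccr7 and Il7r, and above it for Bach2. The share of all genes for which that library was below was not counted. Its mean log2 level of T cell identity genes, 7.85, was also below the 8.90 to 9.67 of naive brain.

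At day 30 none of the 9 passed on the deposited scale in any of its 3 comparisons. Against blood 0.711% of all genes passed, and 3 of 9 were at an unadjusted p under 0.05 (10.3% of all genes), with 0 called by edgeR and by DESeq2. Of all genes edgeR called 143 and DESeq2 287. Lef1, Il7r, Dapl1 and Satb1 had all day 30 libraries below all blood libraries, as had 7.38% of all genes, and the median of the 9 was -1.27, against -0.05. With the library size left unscaled, 5 of 9 passed as lower, where 276 of all genes passed, 25 of them as lower. Against naive brain 0.224% of all genes passed, 2 of 9 (Ccr7 and Klf2) were at an unadjusted p under 0.05 against 8.90% of all genes, edgeR called 0 and DESeq2 1, and Klf2 had no overlap, as had 6.03% of all genes with day 30 below. Of all genes edgeR called 6 and DESeq2 225 in that comparison. Against day 3, 0.255% of all genes passed, 4 of 9 were at an unadjusted p under 0.05 (5.68% of all genes), edgeR called 0 and DESeq2 1, and Lef1, Dapl1 and Satb1 had all day 30 libraries above all day 3 libraries, as had 4% of all genes. There edgeR called 35 of all genes and DESeq2 171. Replicate 1 of day 30 and of day 3, both of low background, deviated together, as did replicates 2 and 3, of high background. With the replicate number as a block the count of members stayed at 0 against day 3 and against blood. Against naive brain it was 2, both as lower, where 121 of all genes passed, 120 of them as lower.

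Between naive brain and blood, 1 of 9 passed, as higher (Klf2), where 7.59% of all genes passed. Klf2 was also the only member of the 9 with all naive brain libraries above blood (15.6% of all genes), and Il7r and Satb1 had them all below (15.2% of all genes). The median of the 9 was -0.86, against -0.37 over all genes and 1.82 over the T cell identity genes, 4 of 15 of which rose. With the library size left unscaled, 5 of 9 passed, Klf2 as higher and 4 as lower. Of all genes 1563 passed in that fit, 693 as higher and 870 as lower. These comparisons share control samples, so their counts are not independent of one another.

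With T cell identity genes set equal, 5 of the 9 fell at day 30 relative to blood. There 0.349% of all genes passed, 0.134% as lower, and the median of all genes was -1.32. The differences were -3.30 ± 0.66 for Dapl1, -3.27 ± 0.59 for Ccr7, -2.71 ± 0.61 for Lef1, -2.63 ± 0.60 for Satb1 and -2.54 ± 0.54 for Il7r (adjusted p = 3.79e-05 to 0.00579). Lef1 and Satb1 were lost without day 30 replicate 1 and without naive blood replicate 1, and Satb1 also without naive blood replicate 2 (adjusted p = 0.0512 to 0.553). Satb1 was also lost with library background as a term (-1.75, adjusted p = 0.165), while Ccr7, Il7r and Dapl1 passed under that term and without each library in turn. In naive brain, 5 of 9 fell relative to blood, where 12% of all genes passed, 10.7% as lower, with a median of -2.29 over all genes. They were Dapl1 (-3.78), Satb1 (-3.56), Lef1 (-3.03), Bach2 (-2.89) and Il7r (-2.78). None of these 5 passed with library background as a term. At day 3 Dapl1 (-3.05) and Lef1 (-2.32) fell and Klf2 rose by 2.18 relative to blood. There 8.69% of all genes passed, mostly as higher, and the median of all genes was 1.37. The call of Lef1 was lost without naive blood replicate 1 (adjusted p = 0.0579).

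Dapl1, Lef1, Satb1 and Il7r passed as lower both in naive brain and at day 30, relative to the same blood libraries. Relative to naive brain, Ccr7 (-2.51) and Klf2 (-2.19) fell at day 30. Both calls were lost without naive brain replicate 2 or 3 or day 30 replicate 2, and that of Ccr7 also without day 30 replicate 3 and with library background as a term (-1.23, adjusted p = 0.882), under which Klf2 passed (-2.20, adjusted p = 0.0415). Between day 30 and day 3, 5 of 9 fell: Ccr7 (-4.27), Klf2 (-3.30), Bach2 (-2.499), Il7r (-1.83) and S1pr1 (-1.75). So did 38.4% of all genes, whose median was -2.76, and the differences of Bach2, Il7r and S1pr1 were smaller than that median. Between day 3 and naive brain, 5 of 9 were called higher (Bach2 by 3.97, Il7r by 2.07, Satb1 by 2.06, Ccr7 by 1.76 and Klf2 by 1.10), but so were 82.2% of all genes, and the values say only that they stood higher relative to the T cell genes. With library background as a term, Klf2, Il7r and Satb1 were lost there (adjusted p = 0.105 to 0.664).

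**Figure D3:**
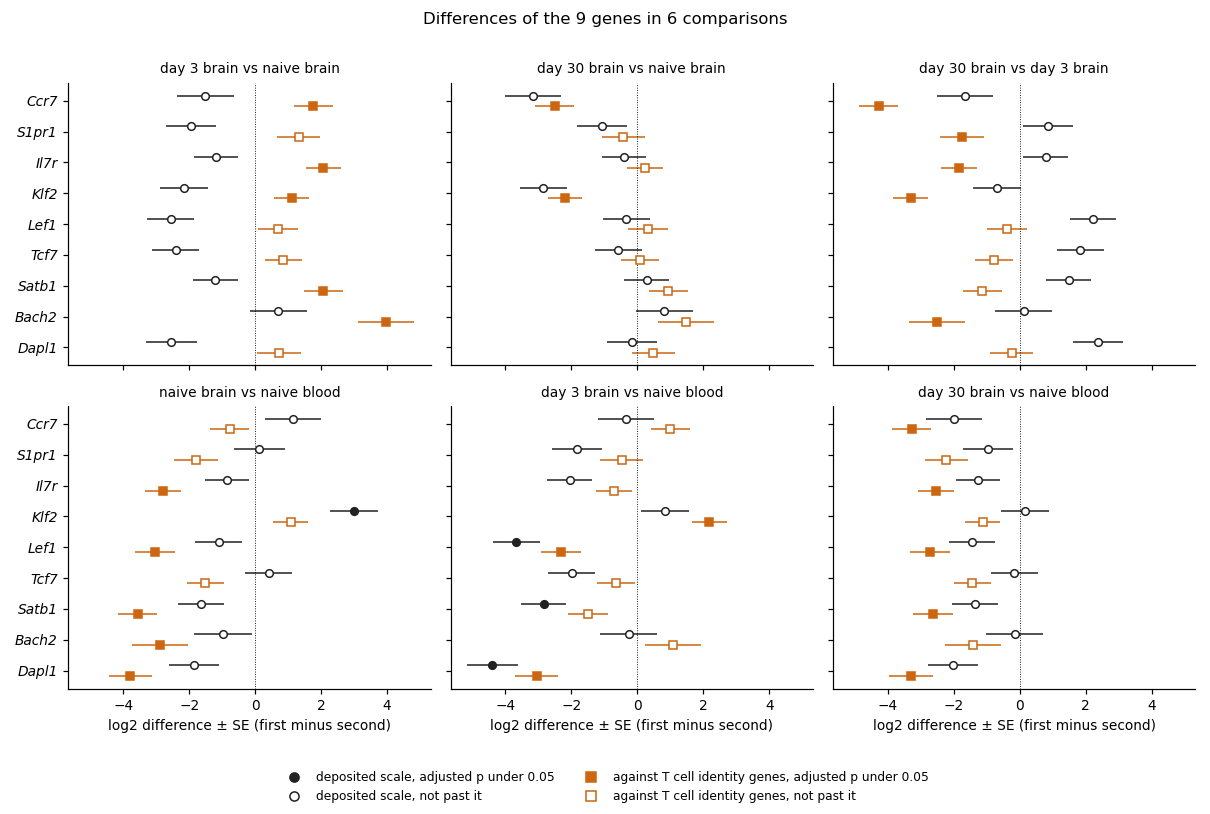
Log2 differences ± SE of the 9 genes in 6 comparisons, first group minus second, on the deposited scale (circles) and with 15 T cell identity genes set equal in all libraries (squares). Filled symbols passed an adjusted p of 0.05 over 22352 genes. Setting the T cell genes equal shifts every gene of a comparison, and not only these 9, by the same amount. At day 3 against naive brain that shift puts the symbols on opposite sides of 0 for most of the 9. At day 30 against blood it puts the squares left of the circles.

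**Figure D4:**
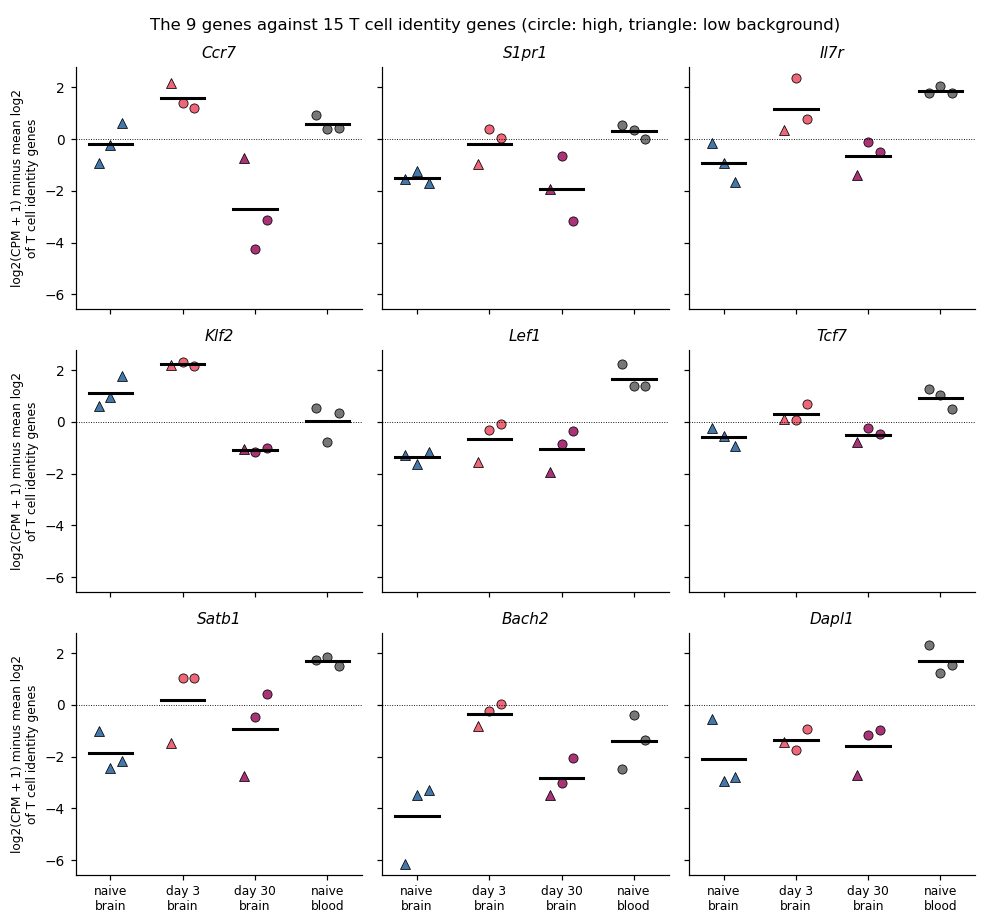
Log2(CPM + 1) of each of the 9 genes minus the mean log2 of 15 T cell identity genes in each library, with group means as lines and low or high background as triangles or circles. Klf2 lies at 2.14 to 2.33 at day 3 and at -1.16 to -1.02 at day 30, and Dapl1, Lef1 and Il7r are highest in blood.

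Among themselves, the 9 genes fell into unlike profiles over the 12 libraries. By the root mean square difference of log2 levels centred on each gene's own mean, Lef1 and Dapl1 (0.69), Tcf7 and S1pr1 (0.69) and Lef1 and Satb1 (0.73) were most alike, and Klf2 and Dapl1 (2.30) and Ccr7 and Dapl1 (2.29) least. Of 13199 other genes, the nearest to the mean profile of the 9 were Bclaf1 (0.41), Zfp871 (0.42), Rps18 (0.45), Fam65b (0.45) and Xrn2 (0.45). The nearest to single genes were Jak1 to Tcf7 (0.29), R3hdm1 to Il7r (0.34), Wdr48 to S1pr1 (0.43), Vamp2 to Klf2 (0.45), H2-T24 to Bach2 (0.47), Dnajc15 to Lef1 (0.54), Kcnq1ot1 to Satb1 (0.56), B3gnt4 to Ccr7 (0.66) and Emb to Dapl1 (0.81). All 12 libraries carry the background split, which this measure does not remove.

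Of 16 other naive and recirculating T cell genes, 2 fell and 1 rose at day 3 relative to blood, with a median of -1.12 against 0.03 over all genes. At day 3, Txk (a Tec family kinase) fell by 3.46 and Dgka (a diacylglycerol kinase that damps T cell receptor signals) by 2.42 relative to blood, and Ccr9, a gut homing receptor also found on plasmacytoid dendritic cells, rose by 2.83. Relative to naive brain, Dgka fell by 3.16 and Ets1, a factor of naive lymphocytes, fell by 2.71 at day 3, with a list median of -1.58 against 0.50. Txk was 3.26 higher at day 30 than at day 3 (adjusted p = 0.0207), Rgs10 was 2.37 higher in naive brain than in blood, and no gene of this list passed at day 30 against blood or naive brain.

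Among 12 genes of interleukin 7 receptor signalling, the feedback inhibitors Socs1 and Cish were higher than in blood both in naive brain and at day 30. Socs1 had 151 ± 55.7 CPM in naive brain, 57.3 ± 64.6 at day 30 and 1.60 ± 1.38 in blood, and rose by 5.93 in naive brain (adjusted p = 2.97e-05) and by 4.03 at day 30 (adjusted p = 0.0316). Cish rose by 5.01 and 3.62 in the same comparisons and fell by 4.23 at day 3 relative to naive brain. Crlf2 rose by 3.79 in naive brain, for 3 of 12 higher there, with a list median of 1.81 against -0.37 over all genes. At day 3 against naive brain 2 of 12 fell, with a median of -1.60 against 0.50. Bcl2, the survival gene downstream of interleukin 7, had 852 ± 405 CPM in naive brain, 111 ± 99.1 at day 3 and 908 ± 74.1 at day 30, lower by 3.21 at day 3 than in naive brain (adjusted p = 0.00902) and higher by 3.44 at day 30 than at day 3 (adjusted p = 0.00442).

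Of 11 genes of sphingosine 1-phosphate handling, Gnai2, the G protein subunit through which S1PR1 signals, rose by 4.42 in naive brain and by 3.12 at day 3 relative to blood, and Sphk2, a kinase that makes the ligand, rose by 2.72 in naive brain. Of 12 lymphocyte trafficking genes, Coro1a, Rac2, Itgb7 and Itgb2 rose in naive brain relative to blood, by 4.68, 3.68, 3.20 and 2.80, and Coro1a fell by 2.78 at day 3 relative to naive brain. Of 11 partners of TCF and LEF factors only Tle1, a Groucho corepressor, passed, falling by 3.06 in naive brain relative to blood. Gnai2, Coro1a, Rac2 and Itgb2 are also used by microglia, whose genes took 1.24% to 2.502% of reads in naive brain and 0.0230% to 0.0686% in blood, and their part was not tested. The medians of the sphingosine, trafficking and partner lists between naive brain and blood were 0.60, 1.54 and 0.51, against -0.37 over all genes.

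Of 12 effector and memory regulators tested, 5 rose in naive brain, 2 at day 3 and 3 at day 30 relative to blood, with list medians of 2.62, 1.40 and 1.82 against -0.37, 0.03 and -0.05 over all genes. Bhlhe40, a factor of tissue-resident T cells, rose in all of these, by 5.66, 4.46 and 4.46. Id2 rose by 3.41 in naive brain and 3.20 at day 30, and Gzmb, the cytotoxic granule protease, by 3.81 in naive brain. Cx3cr1, which marks effector T cells but also defines microglia and is in both lists, rose by 7.15, 4.02 and 3.42, and fell relative to naive brain, with differences of -3.12 at day 3 and -3.72 at day 30.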

How the data were processed

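CD8 T cells were sorted by flow cytometry and their RNA amplified with a SMART-Seq v4 ultra-low input kit, per the labels' protocols. Per the submitters' processing notes, the tools were FastQC 0.11.2, STAR 2.5.3a, featureCounts of Subread, and edgeR, with the mm10 build; neither annotation nor strand setting is given in the sources used here. The deposited table holds signal, in counts per-million (CPM) relative to a library size that the authors scaled. Its values were whole multiples of 1 read (100% within 1e-06 reads), so reads were recovered for edgeR 4.0.16 and DESeq2 1.42.0 as alternatives. The main test was limma 3.58.1 in R 4.3.3, with empirical Bayes moderation and a trend, on log2(CPM + 1) of all 12 libraries, which understates changes of low genes. It was also run on simulated counts. These held neither the background split nor the differences in T cell level, so that run cannot show how the test behaves under them. The test had been planned for plain CPM and was kept for the scaled values. A value of 0 allows up to 3 reads, 0.298 to 1.65 CPM by library.

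The members, gene lists and tests were chosen with earlier results of these data known. All members are named; of other lists, up to 4 genes past the threshold per comparison, by size of difference; likeness used genes with a mean of at least 10 CPM in a group. T cell identity genes Trac, Trbc1 and Trbc2 were not matched, nor were Zfp683, Ighm and Ly6g, and 2 listed genes were matched under older names. Setting the T cell genes equal was listed as an alternative, and giving it beside the main test was decided after the data were seen, as was the split by background at 1342 unscaled CPM on receptor genes. For day 30 and day 3, deviations of same-numbered libraries correlated at 0.530, 0.284 and 0.165. Unlike numbers also correlated, at 0.214 for day 30 replicate 2 with day 3 replicate 3. The value was 0.180 for day 30 replicate 3 with day 3 replicate 2. Replicate 1 of both groups was of low background and the others of high, so pairing by number cannot be told apart from that split. Other groups did not pair.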

Additional observations from a re-analysis of the deposited data

Results flagged for a closer look

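With T cell identity genes set equal in all libraries, the effect of day 30 and the effect of day 3, each taken against naive brain, differed for 5 of the 9 genes by limma's test of that difference. Naive brain cancels in it, so these are the values of day 30 against day 3 given above and no further result. The effect at day 30 minus that at day 3 was -4.27 for Ccr7 (adjusted p = 2.07e-10), -3.30 for Klf2 (adjusted p = 8.3e-08), -2.499 for Bach2 (adjusted p = 0.0195), -1.83 for Il7r (adjusted p = 0.00827) and -1.75 for S1pr1 (adjusted p = 0.0307). On that scale all 3 day 30 libraries lay below all 3 day 3 libraries for Ccr7, Klf2, Bach2 and Il7r, and overlapped for S1pr1. The share of all genes without overlap was not counted on that scale. In the same comparison 38.4% of all genes passed, with a median of -2.76, and 3 of the 15 T cell identity genes rose on the deposited scale. The differences of Bach2, Il7r and S1pr1 were smaller than that median. The calls of S1pr1, Il7r and Bach2 were lost without day 3 replicate 2 or without day 30 replicate 1, and those of S1pr1 and Bach2 also without day 3 replicate 3.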

How the results depend on the processing

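Members called are given here in the order naive brain, day 3 and day 30 against blood, day 3 and day 30 against naive brain, and day 30 against day 3. As reported they were 1, 3, 0, 0, 0 and 0. Another pseudocount (0.1 or 5), filter (none or stricter) or edgeR gave the same counts. They were 5, 6, 5, 0, 2 and 3 with unscaled CPM, 4, 6, 2, 0, 0 and 0 with quantile normalization, 1, 0, 0, 0, 0 and 0 with median centring, 5, 3, 5, 5, 2 and 5 with T cell identity centring, 3, 3, 0, 6, 2 and 1 with library quality weights, 0, 5, 1, 0, 0 and 1 with a library background term, 4, 4, 0, 1, 1 and 1 with DESeq2, and 2 against blood in naive brain when its groups were fitted alone. With the replicate number as a block they were 1, 3, 0, 4, 2 and 0, though the numbers are not known to pair libraries of any groups. Leaving out each library in turn gave 0 to 1, 2 to 5, 0 to 1, 0 to 4, 0 to 2 and 0 to 2, with the highest counts at day 3 without day 3 replicate 1.

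Of the 4 called genes, Dapl1 (-4.19, adjusted p = 0.0881) and Lef1 (-3.46, adjusted p = 0.184) were lost in median centring alone and passed in all other fits of the deposited values. Satb1 was lost there (-2.64, adjusted p = 0.349), with T cell identity centring (adjusted p = 0.103) and without naive blood replicate 1 or 3. Klf2 was lost with T cell identity centring (1.08, adjusted p = 0.107), quantile normalization (1.58, adjusted p = 0.0552) and a library background term (0.84, adjusted p = 0.9995). It was also lost without naive brain replicate 3 or naive blood replicate 2. Between day 3 and naive brain, T cell identity centring turned Ccr7 (1.76), Klf2 (1.10), Il7r (2.07) and Satb1 (2.06) from negative to called positive, and between day 30 and day 3 it turned S1pr1 (-1.75), Il7r (-1.83) and Bach2 (-2.499) from positive to called negative; the median of all genes moved to 3.77 and -2.76 there. It also changed the sign of 18 of 54 differences that passed in neither fit, against 9 with unscaled CPM and 10 with quantile normalization.

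With T cell genes set equal, counts of members were 5, 3, 5, 5, 2 and 5. Alternatives added after the data were seen gave 0, 3, 4, 2, 1 and 6 with a library background term, and 4 to 7, 2 to 3, 3 to 5, 3 to 6, 0 to 2 and 2 to 6 without each library in turn; CD3 and CD8 genes alone, the others alone, a pseudocount of 5 and the replicate block gave counts within 1.5 times.

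All genes called numbered 1696, 264, 159, 160, 50 and 57. Counts over all alternatives ran from 35 to 4169, 75 to 1943, 11 to 296, 5 to 18367, 0 to 532 and 8 to 8590, the replicate block moving them to 1944, 396, 296, 314, 121 and 115. Unscaled CPM gave 1563, 573, 276, 225, 119 and 265, and DESeq2 3799, 569, 287, 975, 225 and 171. Quantile normalization gave 704, 601, 179, 56, 12 and 134, and median centring 2894, 75, 11, 5, 2 and 8. T cell identity centring gave 2673, 1943, 78, 18367, 52 and 8590. Library quality weights gave 4169, 182, 122, 2104, 256 and 97, and the background term 35, 220, 70, 5, 0 and 140. Between naive brain and blood 1478 were higher and 218 lower, against 693 and 870 (1563 in all) with unscaled CPM, 2882 and 12 when medians were centred and 1318 and 2481 with DESeq2. Between day 3 and naive brain 34 were higher and 126 lower, against 115 and 110 (225 in all) with unscaled CPM and 800 and 175 with DESeq2. Unscaled CPM moved the median of all genes to -1.05 and 1.13 in these comparisons, median centring to 0.90 and -0.56. The causes were not tested.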
